A study of Mus musculus with 7 samples.

Results

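Described here are 10 genes of endothelial junctions and sinusoids in bone marrow, 3 of cell junctions (Pecam1, Cdh5 and Esam), 3 for receptors of vessel stability (Tek, Tie1 and Robo4), 3 of sinusoid and capillary surfaces (Emcn, Stab2 and Plvap) and Egfl7 for a secreted factor. They were chosen by symbol, through the GENCODE M21 annotation, from the 49315 Ensembl genes of the deposited count table; all 10 were found, and all 10 passed the filter on low counts. The vessels of bone marrow are largely sinusoids, wide capillaries with a thin and leaky wall through which blood cells pass into the circulation. Their endothelial cells are held together by the cadherin of the Cdh5 gene and by immunoglobulin-type adhesion proteins, are kept quiescent by angiopoietin signalling through the Tie2 receptor (gene Tek), and carry scavenger receptors and diaphragm proteins on their surface.

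RNA was sequenced from bone marrow in 4 libraries of genotype miR-181a2b2-/- (KO) and 3 of genotype miR-181a2b2flox/flox (flox), which the sample titles call WT. The deleted cluster encodes the microRNAs miR-181a and miR-181b. All 7 libraries came from mice on chow with hindlimb ischemia, a surgical block of leg blood flow, so no group without surgery is part of the comparison. The sources used here give no age, sex, time after surgery or Cre line. They also do not say that each library is a separate animal, so p-values measure only how far these samples spread, and part of that spread may be technical. By its title the series belongs to work on miR-181a/b and CXCR4 in limb ischemia with diabetes. In bulk RNA of marrow, fewer endothelial cells and less RNA per endothelial cell cannot be told apart.

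Total counts ran from 43110251 to 48320848 in KO and from 46151300 to 51688514 in flox. Flox 1 stood apart on the first principal component of log2 CPM (read counts scaled to a common library size), at a score of 58.7, against -23.2 to -16.6 in the KO libraries and 5.5 and 14.2 in the other flox libraries. Fold changes of the members, list medians, and any other named gene's fold change that moved by over 1.5 times without flox 1 are therefore also given without it. The extraction protocol of the labels names white adipose tissue and the source label bone marrow. Of 8 white adipocyte markers Lep was below the filter, and the 8 summed to 28.5 to 62.1 CPM in KO and 33.6 to 81.3 CPM in flox. The library labels cannot be checked through the mature microRNAs of the deleted cluster, since these carry no poly(A) tail. No other transcript of that locus was looked up. Over the whole table, 26 of the 17920 tested genes passed edgeR at 0.05 after adjustment (0.145%), with 24 rising (0.134%) and 2 falling (0.0112%) in KO.

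The deleted microRNAs share 1 seed, and that seed has no match in any member. The sequences are shown because they define what was searched; capitals mark the seed, bases 2 to 8, and the sequences are from RefSeq on GRCm38.p6. Both lie on the plus strand of chromosome 2, the first at chr2:38852741-38852763 and the second at chr2:38853845-38853868.
miR-181a-5p: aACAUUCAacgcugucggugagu
miR-181b-5p: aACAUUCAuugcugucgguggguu
The match searched was TGAATGT, with or without a following A, in each gene's longest 3' UTR in GENCODE M21. It was found in 0 of the 10 members, whose 3' UTRs ran from 306 bases in Egfl7 to 2240 bases in Tie1. Among tested genes with a 3' UTR, 17.8% of 14275 held it, and their median 3' UTR length was 1129 bases. This says only that these letters are not in those windows.

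Of the 10 members, 8 were lower and 2 higher in KO, and 0 passed the test over all genes. The median log2 fold change, KO minus flox, was -0.62, against -0.01 over all tested genes, of which 51.9% were lower. The lowest adjusted p was 0.22 (Tie1, edgeR quasi-likelihood test). At an unadjusted edgeR p under 0.05 there were 5 members, all lower (Tie1, Emcn, Esam, Cdh5 and Plvap), against 8.17% of all tested genes that were lower at that level. DESeq2 also called 0 members, with 6 at an unadjusted p under 0.05, beside 2451 of 17920 tested genes in either direction. For limma-voom it was 0 with 3, beside 2628 of 17920. In 8 of 10 members flox 1 was the highest of the 7 libraries, against 20.3% of all tested genes. Without flox 1, 7 members were lower and the median was -0.25. In that fit 2 members had an unadjusted edgeR p under 0.05, beside 2215 of 18296 tested genes in either direction. That unadjusted count was 8 without flox 2 (all genes 2007 of 18325), 3 without KO 1 (2099 of 17729) and 2 without KO 4 (1850 of 17731). Only for Tie1 and Emcn did every KO library lie below every flox library, a pattern shown by 7.41% of all tested genes, and for 0 members did every KO library lie above, against 6.22%. Without flox 2 that count was 7 of 10 members, against 11.6% of all tested genes, and without flox 1 or flox 3 it was 2, against 10.9% and 13.9%.

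**Figure D1:**
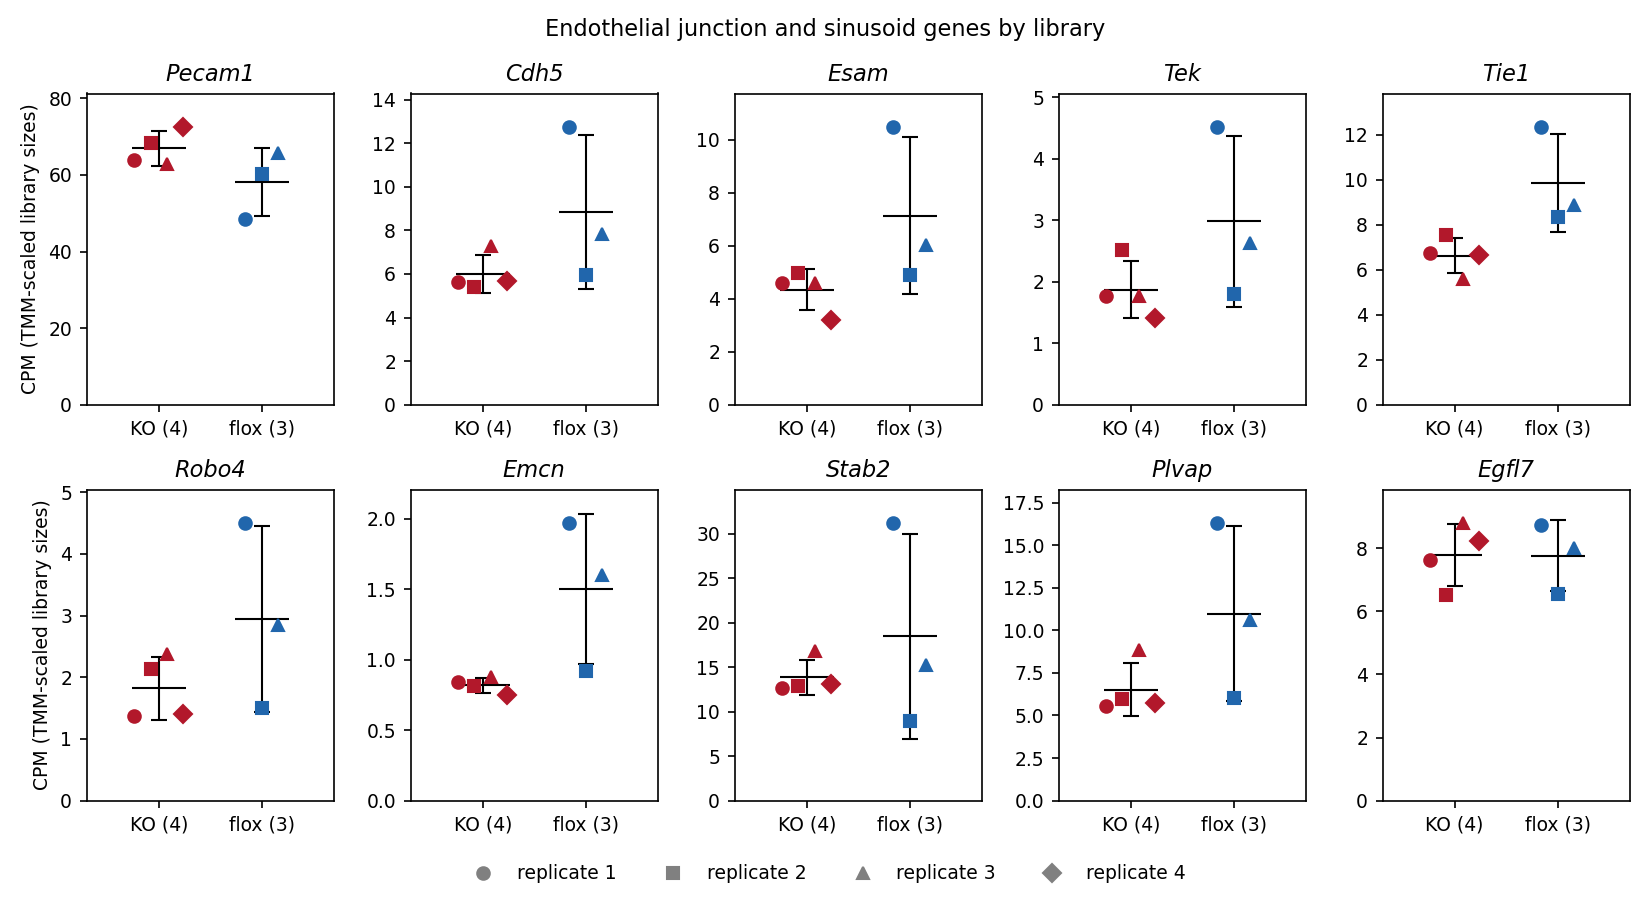
Level of each member in CPM on TMM-scaled library sizes (vertical axes from 0), with 1 symbol per library, KO in red on the left and flox in blue on the right, and mean ± SD as bars. Flox 1 is the highest library for 8 of the 10 genes, and the KO libraries lie entirely below flox for Tie1 and Emcn.

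Cdh5, which encodes VE-cadherin, the adhesion protein that seals endothelial cells to each other, was at 5.61, 5.42, 7.29 and 5.67 CPM in KO 1 to KO 4, against 12.7, 5.94 and 7.82 CPM in flox 1 to flox 3. Flox 1 was far above all other libraries, flox 2 lay inside the KO range, and the groups overlapped through KO 3. The means were 5.995 ± 0.869 CPM in KO (SD, n = 4) and 8.84 ± 3.52 CPM in flox (SD, n = 3), or -0.56 as log2 of KO over flox (95% interval -1.10 to -0.02, SE 0.24, edgeR adjusted p = 0.343), and -0.20 without flox 1. The gene lies on the plus strand at chr8:104101625-104144511 (GRCm38), and the antisense gene Gm29682 that overlaps its span shares no exonic base with it and had 0 to 2 counts.

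Esam, an adhesion molecule of endothelial tight junctions that platelets and megakaryocytes also carry, followed the same order of flox libraries. It was at 4.57, 4.95, 4.596 and 3.21 CPM in KO 1 to KO 4, against 10.5, 4.88 and 6.004 CPM in flox 1 to flox 3. KO 2 and flox 2 were nearly level and the other KO libraries were below them. The log2 fold change was -0.72 (SE 0.26, edgeR adjusted p = 0.284) and -0.33 without flox 1.

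Pecam1 had the opposite sign. It encodes CD31, an adhesion protein of endothelial junctions that many leukocytes and platelets also carry, and it was the most abundant member. It was at 63.9, 68.5, 62.8 and 72.6 CPM in KO 1 to KO 4, against 48.4, 60.2 and 65.8 CPM in flox 1 to flox 3. Flox 1, the highest library for Cdh5 and Esam, was the lowest for Pecam1, and the groups overlapped. The means were 66.9 ± 4.49 CPM in KO (SD, n = 4) and 58.2 ± 8.89 CPM in flox (SD, n = 3), or 0.20 as log2 of KO over flox (95% interval -0.03 to 0.44, SE 0.11, edgeR adjusted p = 0.42), and 0.08 without flox 1. Pecam1 made up 32.0% to 61.1% of the summed CPM of the 10 genes in a library.

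Tie1 had the lowest p of the group. It encodes an orphan receptor tyrosine kinase of endothelium that modulates angiopoietin signalling, and it was at 6.73, 7.53, 5.60 and 6.67 CPM in KO 1 to KO 4, against 12.3, 8.36 and 8.87 CPM in flox 1 to flox 3. All 4 KO libraries were below all 3 flox libraries, although KO 2 and flox 2 were close. The means were 6.63 ± 0.791 CPM in KO (SD, n = 4) and 9.86 ± 2.17 CPM in flox (SD, n = 3), or -0.57 as log2 of KO over flox (95% interval -0.94 to -0.21, SE 0.16, edgeR adjusted p = 0.22). Without flox 1 it was -0.38, and its adjusted p was 0.0552 in DESeq2.

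Its partner Tek, the angiopoietin receptor Tie2, which haematopoietic stem cells also carry, was scarcer. It was at 1.77, 2.52, 1.77 and 1.41 CPM in KO 1 to KO 4, against 4.52, 1.80 and 2.63 CPM in flox 1 to flox 3. KO 2 lay above flox 2, and flox 3 was just above KO 2. The log2 fold change was -0.68 (SE 0.31, edgeR adjusted p = 0.373), and -0.25 without flox 1.

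Robo4, a roundabout receptor of endothelium that stabilizes vessels, had counts of 62 to 111 in KO and 73 to 226 in flox. In CPM it was at 1.37, 2.13, 2.37 and 1.41 in KO 1 to KO 4, against 4.50, 1.496 and 2.84 in flox 1 to flox 3. Only flox 1 and flox 3 were above all KO libraries. The log2 fold change was -0.69 (SE 0.36, edgeR adjusted p = 0.42), and -0.25 without flox 1. Robo4 and Esam are neighbours on chromosome 9, 113.0 kb apart on the same strand with Robo3 and Msantd2 as the coding genes between them.

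**Figure D2:**
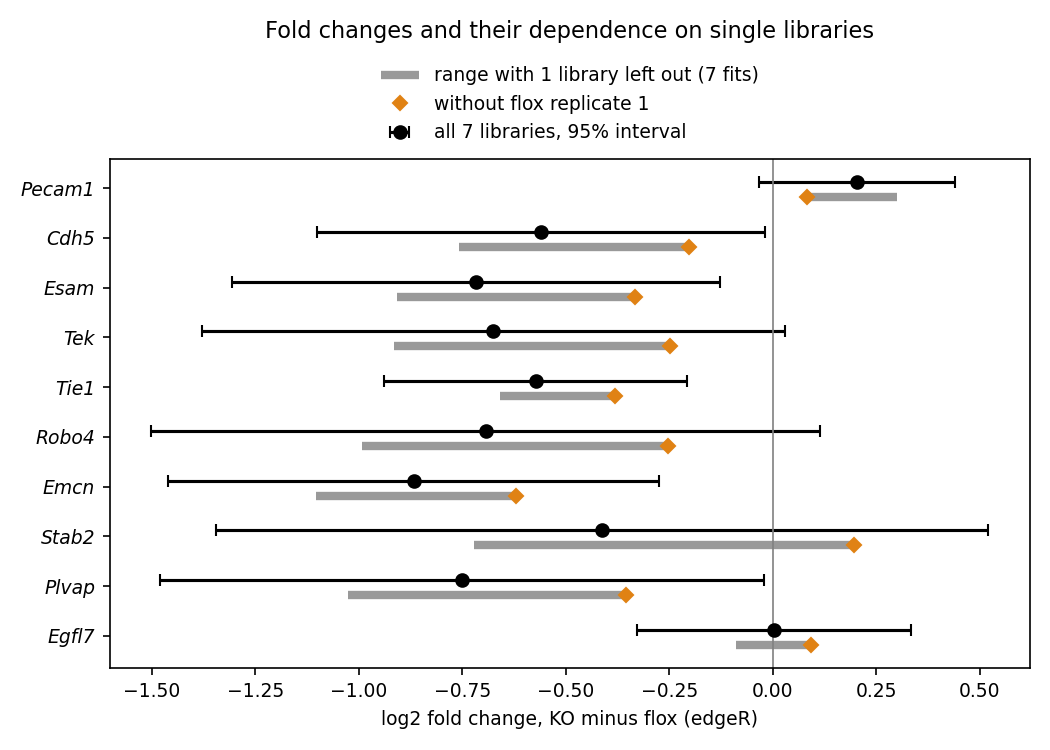
Log2 fold change of each member, KO minus flox, from the edgeR fit over all 17920 genes (black points with 95% intervals), with the range over 7 fits that each leave out 1 library (grey bars) and the value without flox replicate 1 (orange). Without flox 1 every value below 0 moved towards 0, and Stab2 crossed it.

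Emcn had the largest fold change of the 10 genes and the lowest level. It encodes endomucin, a sialomucin of capillary and venous endothelium and of blood stem cells, and had counts of only 33 to 41 in KO and 45 to 99 in flox. In CPM it was at 0.843, 0.810, 0.876 and 0.751 in KO 1 to KO 4, against 1.97, 0.922 and 1.60 in flox 1 to flox 3. The KO libraries were tightly grouped below all 3 flox libraries, with flox 2 just above them. The means were 0.820 ± 0.0534 CPM in KO (SD, n = 4) and 1.499 ± 0.533 CPM in flox (SD, n = 3), or -0.87 as log2 of KO over flox (95% interval -1.46 to -0.27, SE 0.27, edgeR adjusted p = 0.232), and -0.62 without flox 1.

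Plvap, which encodes the protein of the diaphragms that span fenestrae and caveolae, was at 5.54, 5.95, 8.85 and 5.76 CPM in KO 1 to KO 4, against 16.3, 6.05 and 10.6 CPM in flox 1 to flox 3. Flox 2 was level with 3 of the KO libraries, and KO 3 was above it. The log2 fold change was -0.75 (SE 0.32, edgeR adjusted p = 0.345), and -0.35 without flox 1. The span of Gtpbp3 on the opposite strand overlaps that of Plvap but shares no exonic base with it.

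Stab2 was the member that depended most on a single library. It encodes stabilin 2, the hyaluronan scavenger receptor typical of sinusoids, and was at 12.7, 12.9, 16.8 and 13.1 CPM in KO 1 to KO 4, against 31.2, 8.94 and 15.2 CPM in flox 1 to flox 3. Flox held both the highest and the lowest library, and all 4 KO libraries lay between them. On the log2 scale KO minus flox was -0.41 (SE 0.39, edgeR adjusted p = 0.713, 95% interval -1.35 to 0.52), and without flox 1 its sign turned, to 0.20 (edgeR adjusted p = 0.719). The antisense gene Gm16268 shares 141 exonic bases with Stab2 and had 1 to 7 counts.

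Egfl7 was nearly level between the groups, though its flox libraries stood in the same order as those of Cdh5 and Esam. It encodes a secreted protein of the vessel wall matrix, and was at 7.63, 6.50, 8.81 and 8.22 CPM in KO 1 to KO 4, against 8.74, 6.56 and 8.01 CPM in flox 1 to flox 3. The groups covered almost the same range, and flox 1 was no higher than KO 3. On the log2 scale KO minus flox was 0.003 (SE 0.15, edgeR adjusted p = 0.997), and its 95% interval of -0.33 to 0.33 leaves room for a difference of that size in either direction. Without flox 1 it was 0.0925. Egfl7 (plus strand, chr2:26580014-26593120, GRCm38) also hosts the endothelial microRNA miR-126a, whose mature strand at chr2:26591402-26591423 is shown with its seed in capitals because it is encoded inside a member and its seed differs from that of the deleted cluster.
miR-126a-3p: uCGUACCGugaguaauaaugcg
The Mir126a gene had 0 counts in all 7 libraries, which for a mature microRNA in poly(A) libraries says nothing of its level. The 3' end of Egfl7 shares 64 exonic bases with Agpat2 on the opposite strand, a gene with 2601 to 3082 counts in KO and 2941 to 4281 in flox. No source used here gives the strand setting of the counting, so reads in those bases cannot be assigned with certainty. On its own strand Egfl7 shares 264 exonic bases with Gm20532 and 73 with Mir126a, both at 0 counts in all 7 libraries. Reads in these bases are ambiguous whatever the strand setting.

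**Figure D3:**
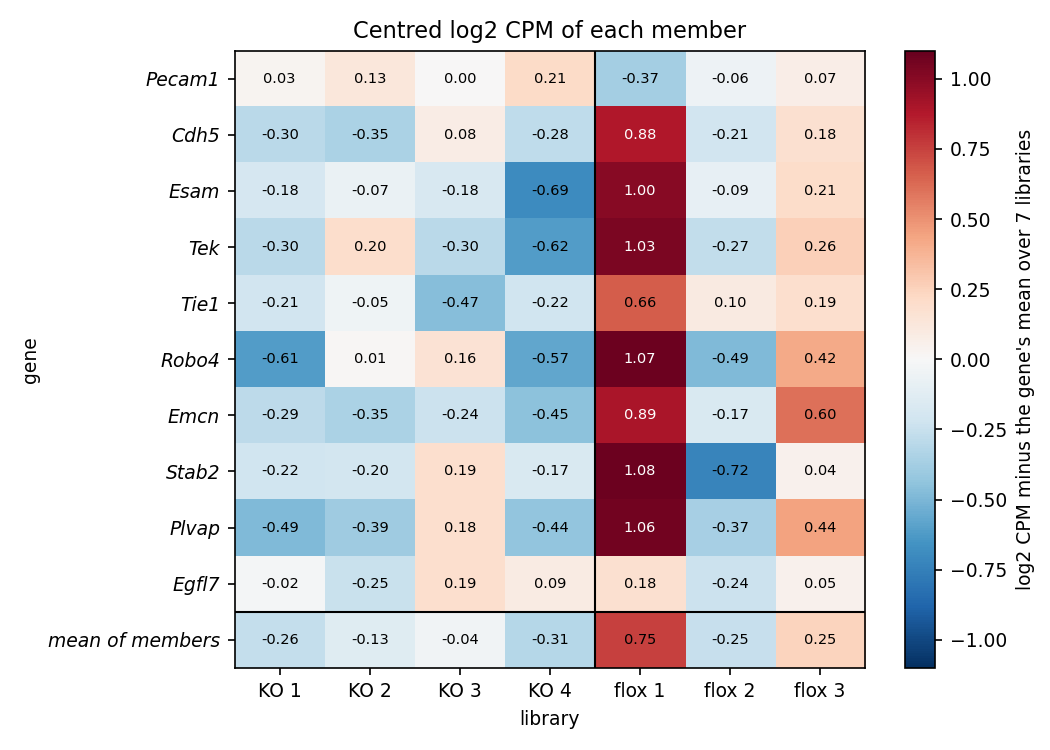
Log2 CPM of each member in each library minus that gene's mean over the 7 libraries, KO on the left and flox on the right of the black line, with the mean over members in the bottom row. Flox 1 is 0.66 to 1.08 above the gene mean for 8 members, 0.18 above for Egfl7 and 0.37 below for Pecam1.

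The flox libraries differed among themselves in most members. Averaged over the 10 genes, centred log2 CPM was -0.26, -0.13, -0.04 and -0.31 in KO 1 to KO 4, against 0.75, -0.25 and 0.25 in flox 1 to flox 3. Flox 2 therefore lay within the KO libraries, and flox 1 and flox 3 above them. The ratio of flox 1 to flox 2 was 3.49 for Stab2, 3.01 for Robo4, 2.70 for Plvap and 1.48 for Tie1. Within KO the highest library exceeded the lowest by 1.16-fold (Pecam1) to 1.78-fold (Tek). Summed over the 9 genes other than Pecam1, levels were 46.8, 48.7, 57.0 and 46.2 CPM in KO 1 to KO 4, against 103, 44.9 and 63.6 CPM in flox 1 to flox 3. The log2 ratio of the mean sums, KO over flox, was -0.51 for these 9 genes and -0.13 without flox 1.

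Setting each gene against Cdh5 in the same library shows which members kept step with it. For 9 members these ratios of CPM were compared as a description. Egfl7 over Cdh5 was 1.36, 1.20, 1.21 and 1.45 in KO 1 to KO 4, against 0.686, 1.10 and 1.02 in flox 1 to flox 3. Emcn over Cdh5 was 0.1504, 0.1496, 0.120 and 0.133 in KO 1 to KO 4, against 0.155, 0.155 and 0.205 in flox 1 to flox 3. All KO ratios lay above all flox ratios for Egfl7, as for 17.0% of the other tested genes, and all lay below for Emcn, as for 0.218%. Cdh5 was itself lower in value in KO (log2 fold change -0.56), and such a divisor raises ratios in KO. These shares therefore do not measure how unusual the 2 genes are. For undivided CPM the shares were 6.22% above and 7.41% below. For Emcn the ratios in KO 1 and KO 2 came within 0.01 of those in flox 1 and flox 2. For the other 7 members the ratios of the groups overlapped, which does not mean that each kept step with Cdh5. Pecam1 over Cdh5 was 11.4, 12.6, 8.62 and 12.8 in KO 1 to KO 4, against 3.80, 10.1 and 8.42 in flox 1 to flox 3. Stab2 over Cdh5 was 2.27 to 2.37 in KO, narrower than its range of 1.503 to 2.45 in flox.

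**Figure D4:**
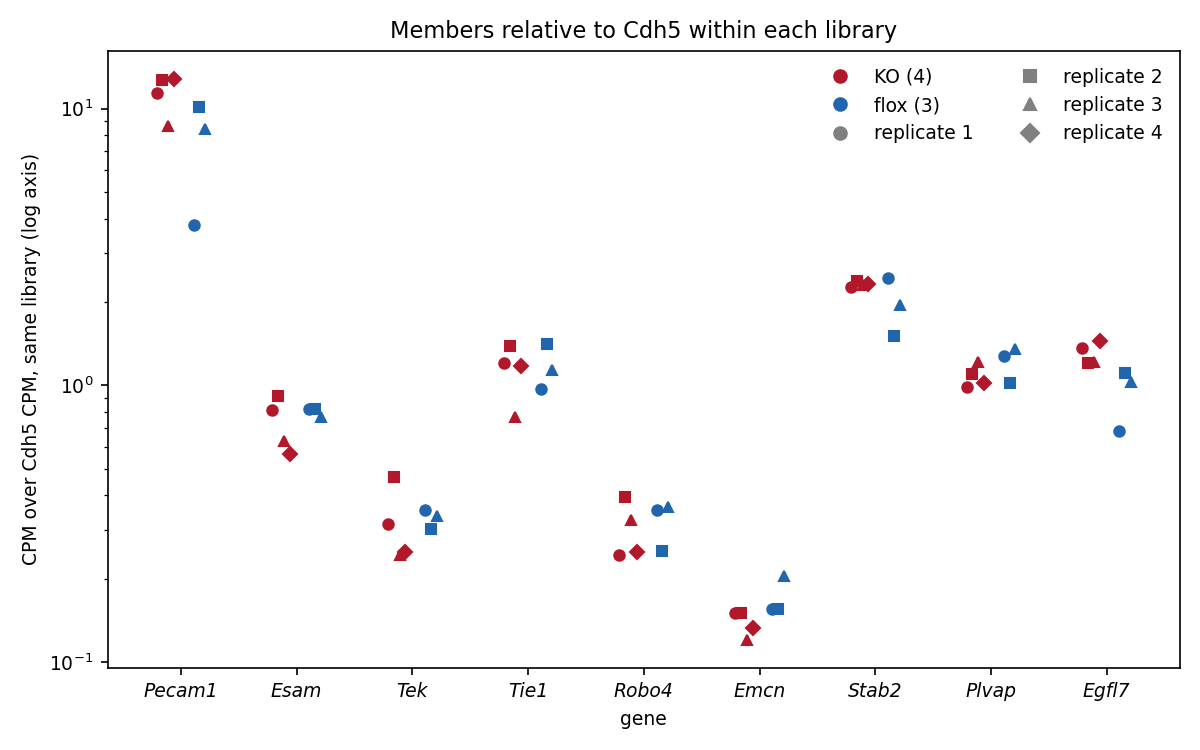
CPM of 9 members divided by the CPM of Cdh5 in the same library (log axis), KO in red on the left and flox in blue on the right of each gene, with 1 symbol per library. Groups separate only for Egfl7, higher in KO, and for Emcn, lower in KO; those ratios carry the error of both genes.

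Levels of different genes were ranked after division by the merged length of annotated exons, as CPM per kb. The sums, the share of Pecam1 and the ratios to Cdh5 above used CPM without this division. In KO the order was Pecam1 (10.7 ± 0.721), Plvap (3.28 ± 0.784), Egfl7 (2.17 ± 0.274), Stab2 (1.58 ± 0.224), Esam (1.51 ± 0.268), Cdh5 (1.43 ± 0.207), Tie1 (1.35 ± 0.161), Tek (0.397 ± 0.0986), Robo4 (0.344 ± 0.0957) and Emcn (0.152 ± 0.00988 CPM per kb, all SD, n = 4). From Stab2 to Tie1, and from Tek to Robo4, neighbours in this order overlapped within 1 SD. In flox Esam came after Pecam1 and Plvap, at 2.48 ± 1.03 CPM per kb (SD, n = 3), and the only neighbours whose means ± SD did not overlap were Tie1 (2.01 ± 0.442) and Tek (0.633 ± 0.296). The wide SD in flox comes with the distance of flox 1 from the other flox libraries.

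The list of other pan-endothelial genes holds none of the members. Of its 25 genes 23 were tested, 19 of them lower and 4 higher in KO. Their median log2 fold change was -0.27, and -0.24 without flox 1, and 0 passed in either direction. Kdr, the main VEGF receptor, was at 5.38, 4.54, 6.41 and 6.12 CPM in KO 1 to KO 4, against 18.5, 5.92 and 8.93 CPM in flox 1 to flox 3 (log2 fold change -0.98, edgeR adjusted p = 0.286, and -0.41 without flox 1). As for Plvap, flox 2 lay inside the KO range and flox 1 far above it. Vwf, made by endothelium and megakaryocytes, gave -0.70 (edgeR adjusted p = 0.278) and the transcription factor gene Sox18 -1.17 (0.312). Without flox 1 they gave -0.39 and -0.58. Whether the members differed from this list was not tested.

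Most genes of the members' own pathways were lower in value, and 0 passed in any of these lists. Of 8 genes around angiopoietin and Tie receptors, 7 were lower (median -0.24, and -0.12 without flox 1). Ptprb, the phosphatase that restrains Tie2 and VE-cadherin, gave -1.01 (SE 0.43, edgeR adjusted p = 0.352) and -0.29 without flox 1. The adaptor gene Dok2 gave -0.43 (edgeR adjusted p = 0.144). The transcription factor gene Foxo1, held inactive by Tie2 signalling, gave 0.69 (edgeR adjusted p = 0.403), or 0.37 without flox 1. In KO, Foxo1 was at 44.2 to 60.9 CPM and Dok2 at 18.1 to 22.7 CPM, against 1.41 to 2.52 CPM for Tek. Which marrow cells gave the Foxo1 and Dok2 RNA was not tested, so these values are no measure of Tie2 signalling. Of 7 genes of roundabout and netrin guidance, 6 were lower (median -0.44, and -0.24 without flox 1), with the ligand genes Slit2 at -1.08 and Slit3 at -0.97 and the receptor gene Robo1 at -0.88 (edgeR adjusted p from 0.275 to 0.31). Without flox 1 Slit2 was at -0.65 and Slit3 at -0.48. Robo1 was under 1 CPM in every library. Of 14 partners of adherens and tight junctions, 12 were lower, with a median of -0.14 and -0.08 without flox 1. Cldn5, the endothelial claudin, gave -0.82 (edgeR adjusted p = 0.367) and -0.21 without flox 1, the junction scaffold gene Cgnl1 -0.77 (0.381), or -0.42 without flox 1, and Ocln, the occludin gene, was higher at 1.06 (0.22). Ocln is also a gene of epithelia and was under 1 CPM in every library.

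Other vessel markers and endothelial regulators lay on both sides of 0. Of 23 genes of marrow sinusoids and other vessel beds 16 were lower, with a median of -0.20 and -0.09 without flox 1. Their log2 fold changes ran from -1.55 to 0.50. The list pools sinusoids with other vessel beds, so its median does not describe sinusoid genes alone. Of 15 tested endothelial transcription factor genes 10 were lower, with a median of -0.09 and -0.06 without flox 1. The adhesion receptor gene Selp, shared with platelets, gave -0.78 (edgeR adjusted p = 0.152), the arterial connexin gene Gja5 -1.55 (0.164) at under 1 CPM in every library, and Il6st, a cytokine receptor subunit, -0.31 (0.192). Among the transcription factors Epas1 (HIF-2 alpha) gave -0.77 (edgeR adjusted p = 0.23), while Klf2, induced by flow in endothelium and also high in lymphocytes, gave 0.60 (0.254), and Ets1, also high in lymphocytes, 0.34 (0.284). Without flox 1 Epas1 was at -0.43 and Ets1 at 0.17. Of 6 lymphatic endothelial markers Ccl21a had 0 counts and Prox1, the defining regulator, was below the filter, and the 4 tested gave a median of 0.01, or 0.03 without flox 1. In this list Mmrn1, which platelets share, gave -0.64 (-0.25 without flox 1), Reln 0.88 and Lyve1 -0.30 (edgeR adjusted p from 0.404 to 0.45). The value of Reln leans on KO 3, at 58.85 CPM against 19.71 to 26.77 CPM in the other KO libraries. In flox Reln reached 20.39 CPM at most.

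**Figure D5:**
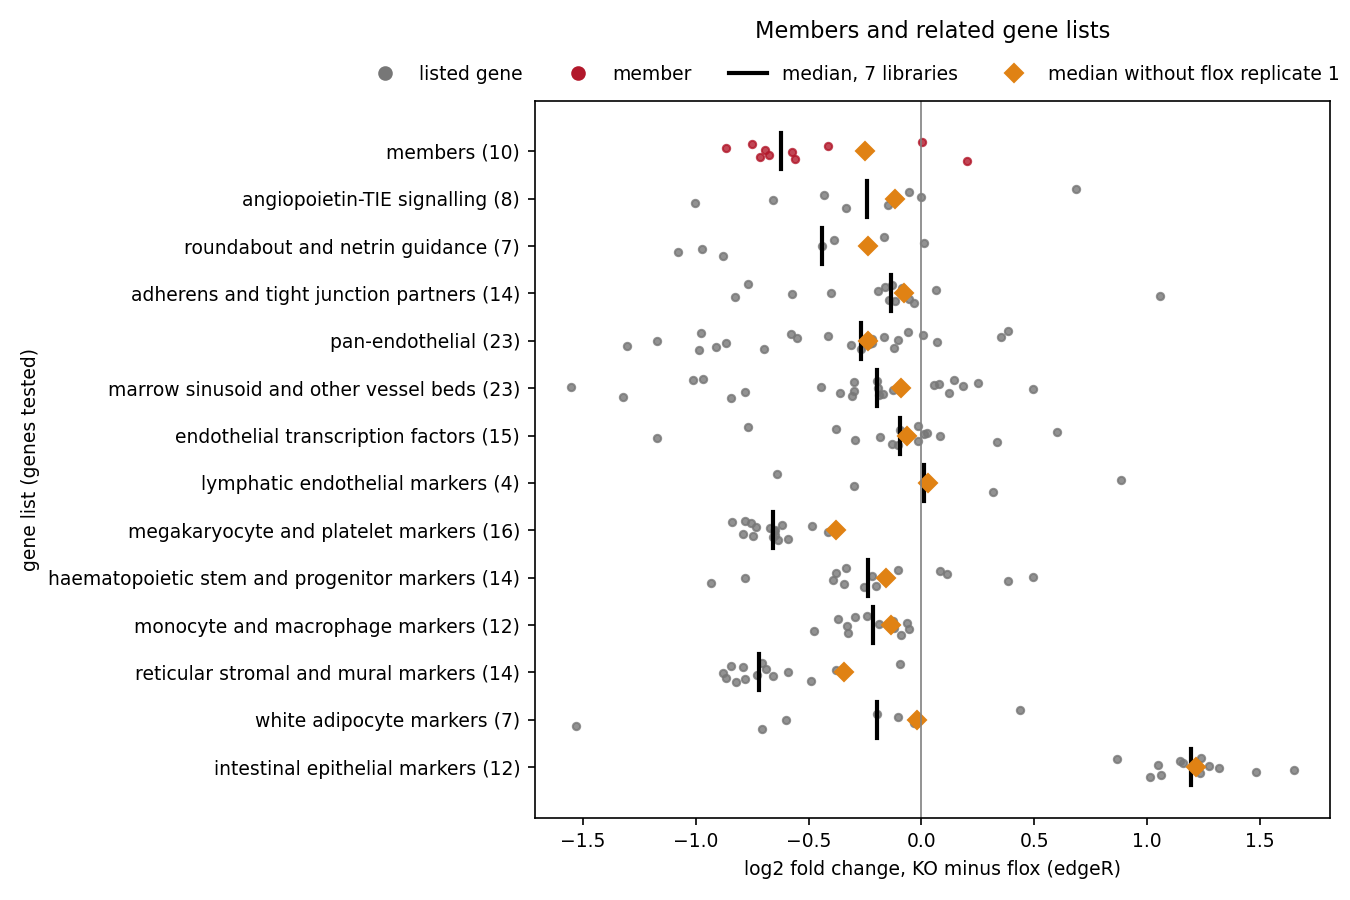
Log2 fold change, KO minus flox, of each tested gene of the members (red) and of 13 related lists (grey), with the median over 7 libraries (black bar) and the median without flox replicate 1 (orange). Stromal and megakaryocyte lists lie near the members' median of -0.62, at -0.72 and -0.66, and the intestinal list lies at 1.20.

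Stromal and platelet markers were also lower in value in KO. All 14 reticular stromal and mural markers were lower, with a median of -0.72 and -0.34 without flox 1, and they summed to 351 to 528 CPM in KO against 550 to 1001 CPM in flox, highest in flox 1. The matrix genes Sparc (-0.84) and Col1a2 (-0.79) and the mural receptor gene Pdgfrb (-0.66) had edgeR adjusted p from 0.166 to 0.229, and Pdgfrb was at -0.41 without flox 1. All 16 megakaryocyte and platelet markers, cells that also carry Esam and Pecam1, were lower, with a median of -0.66 and -0.38 without flox 1, and they summed to 588 to 853 CPM in KO against 765 to 1443 CPM in flox, again highest in flox 1. Gp1bb, a subunit of the platelet receptor for von Willebrand factor, gave -0.75 and the integrin gene Itgb3 -0.59 (edgeR adjusted p = 0.24 and 0.244), and without flox 1 -0.43 and -0.36. The part of these cells in the members' values was not tested. No stromal or megakaryocyte marker was at 0, and 0 genes of either list passed over all genes.

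Stem cell and monocyte markers, whose cells also carry some members, had medians nearer to 0. Of 14 haematopoietic stem and progenitor markers 10 were lower (median -0.24, and -0.16 without flox 1), summing to 193 to 274 CPM in KO against 245 to 288 CPM in flox. Among them the homeobox gene Hoxa9 gave -0.78 (edgeR adjusted p = 0.223), Fgd5, which endothelium shares, -0.93 (0.261, and -0.49 without flox 1) and the stem cell factor receptor gene Kit -0.25 (0.34). All 12 monocyte and macrophage markers were lower (median -0.21, and -0.13 without flox 1), with sums of 3021 to 3475 CPM in KO against 3528 to 4234 CPM in flox, highest in flox 2 and not in flox 1. The integrin gene Itgam gave -0.37 (edgeR adjusted p = 0.186), the oxidase gene Cybb -0.29 (0.232) and the chemokine receptor gene Ccr2 -0.48 (0.268). Pecam1, which these cells also carry, was at 0.20 in the same fit. None of these markers was at 0, 0 passed, and their part in the members' values was not tested.

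Of the 7 tested white adipocyte markers 6 were lower, with a median of -0.20 and -0.02 without flox 1; Plin1, of the lipid droplet coat, gave -1.53 (edgeR adjusted p = 0.272), Adipoq, for the hormone adiponectin, -0.71 (0.637) and Pck1, an enzyme of glyceride synthesis, 0.44 (0.69). Without flox 1 Plin1 was at -0.95 and Adipoq at -0.02. Plin1 was under 1 CPM in every library. The opposite shift stood in intestinal epithelial markers, a list that was chosen with its calls in these data known: all 12 rose in KO, each passing over all genes (median 1.20, and 1.21 without flox 1), summing to 113 to 125 CPM in KO against 50.3 to 52.1 CPM in flox. Fcgbp (1.48), Clca1 (1.65), both of goblet cells, and Krt8 (1.05), an epithelial keratin, had edgeR adjusted p of 0.00044, 0.00212 and 0.0175. Flox 1 did not stand apart in that list, unlike in the members. The part of intestinal RNA in the values of the members was not tested.

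Over the 7 libraries, the protein-coding genes whose centred log2 CPM came closest to the members' mean profile were Tmem44, Pawr, Pth1r, Gp9 and Fblim1. Their root mean square distance was 0.06 to 0.09 log2 units, against a median of 0.38 over 14371 protein-coding genes, 0.11 for Cdh5, the nearest member, and 0.50 for Pecam1, the farthest. The platelet glycoprotein gene Gp9, for example, was at 18.6, 22.3, 20.8 and 16.1 CPM in KO 1 to KO 4, against 35.0, 17.9 and 24.7 CPM in flox 1 to flox 3. Pth1r, the receptor for parathyroid hormone, was at 1.05, 1.15, 1.28 and 1.09 CPM in KO 1 to KO 4, against 2.45, 1.09 and 1.41 CPM in flox 1 to flox 3. All have flox 1 highest and flox 2 among the KO libraries, as the members' mean does. That likeness follows from how these genes were picked and is no separate result.

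Promoters were searched for motifs of endothelial and general factors. RefSeq (GRCm38.p6) gave windows from 250 bases before to 50 after a start for 6 members (Tek, Tie1, Robo4, Emcn, Stab2 and Egfl7, the last with 3 starts). On both strands, AGGAAG, a core bound by ETS factors of endothelium such as ERG and FLI1, was in 6 of the 8 windows, against 35.4% of all 32851, and ACAGGAA, which can overlap it, in 4 of 8, against 8.67%. Leaving out the 3 windows of Egfl7, whose level is not highest in flox 1, AGGAAG was in 4 of 5 and ACAGGAA in 2 of 5. The GATA motif AGATAA was in 1 of 8 (Tek), against 11.2%, and GGGCGG, bound by SP and KLF factors, in 1 of 8 (Egfl7), against 35.7%. Emcn is shown as a window with both ETS motifs and Tek as one with neither. Tie1 also holds both, with 2 matches to AGGAAG like Emcn, but only 38 of its bases before the start lie outside the annotated gene. In the sequences capitals mark matches to the ETS motifs on either strand. Printed are only the bases before the start that lie outside the annotated gene, 239 for Emcn and 250 for Tek. The AGATAA match of Tek lies in the part of its window that is not printed. The Emcn bases are chr3:137340828-137341066 and those of Tek chr4:94739039-94739288, both on the plus strand. The log2 fold changes were -0.87 for Emcn and -0.68 for Tek, and a match is a description, not a site of binding.
Emcn: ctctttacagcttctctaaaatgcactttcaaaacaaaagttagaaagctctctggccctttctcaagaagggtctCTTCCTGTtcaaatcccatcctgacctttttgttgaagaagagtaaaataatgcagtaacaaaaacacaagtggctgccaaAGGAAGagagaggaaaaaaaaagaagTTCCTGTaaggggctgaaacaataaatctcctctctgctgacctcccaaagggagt
Tek: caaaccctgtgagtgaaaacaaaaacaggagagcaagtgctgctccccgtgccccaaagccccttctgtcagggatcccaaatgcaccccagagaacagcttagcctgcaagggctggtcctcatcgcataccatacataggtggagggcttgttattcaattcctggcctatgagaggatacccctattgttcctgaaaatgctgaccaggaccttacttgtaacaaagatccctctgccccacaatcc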

How the data were processed

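Raw read counts per Ensembl gene were deposited by the authors in 1 table with 7 library columns. The submitters' processing notes name Trimmomatic 0.36, STAR 2.5.2b, featureCounts, Subread 1.5.2 and the GRCm38 build. No source used here gives the annotation release, the strandedness or the handling of multi-mapping reads, which decide how reads of overlapping genes are split. Columns were matched to samples by the library codes of the labels. Names and positions came from GENCODE M21, which matched 49056 of the 49315 IDs, and 0 columns were left unmapped. Chi-square per degree of freedom between libraries of a group ran from 21.2 to 101. All 7 were counted as samples, though these values cannot show that each is a separate animal.

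KO was compared with flox by the quasi-likelihood test of edgeR 4.0.16 in R 4.3.3 (filterByExpr with a minimum count of 10, TMM scaling, robust glmQLFit, glmQLFTest). The test was two-sided, and p-values were adjusted by Benjamini-Hochberg over all 17920 tested genes, with a threshold of 0.05. DESeq2 1.42.0 and limma 3.58.1 (voom) were alternatives. Standard errors are those implied by the F statistic. Library sizes were TMM-scaled for CPM, with a prior count of 2 on the log2 scale. The edgeR step was checked on simulated counts. Members and gene lists were chosen with earlier results of these data known. All members are named, along with up to 3 genes of lowest p per list and the 5 genes nearest to the members' mean profile. Of the genes overlapping or next to a member, only some are named. Alternatives were other normalizations, filters and tools, non-robust dispersion, haemoglobin and mitochondrial genes left out, a replicate block, and omission of each library in turn; sums without Pecam1 were added after the data were seen.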

Additional observations from a re-analysis of the deposited data

Results flagged for a closer look

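KO 3 stood apart from the other KO libraries for 3 members, by the size of its gap to the next library relative to the group's range. Its level was 7.29 CPM for Cdh5, against 5.42 to 5.67 CPM in the other KO libraries, 16.8 CPM for Stab2, against 12.7 to 13.1 CPM, and 8.85 CPM for Plvap, against 5.54 to 5.95 CPM. Over 13 groups of KO libraries checked (10 members and 3 sums), chance flags about 1 in 20, and the 3 genes are not independent. Among the KO libraries KO 3 was not the highest for Tie1, where it was the lowest at 5.60 CPM. Without KO 3 the log2 fold changes, KO minus flox, were -0.65 for Cdh5, -0.50 for Stab2 and -0.91 for Plvap.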

How the results depend on the processing

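Under every alternative run, 0 members passed, and 7 to 9 members were lower in KO; the strict filter removed Emcn. Fold changes of members kept their sign with 2 exceptions. Stab2 ran from -0.72 to 0.20 with 1 library left out, the sign turning without flox 1. Egfl7, at 0.003, was -0.024 with the replicate block and ran from -0.088 to 0.0925 with 1 library left out, below 0 without KO 3, KO 4 or flox 2. The median over members ran from -0.83 to -0.25 with 1 library left out (-0.25 without flox 1), and the count of all genes called from 2 to 14. That count, 26 in the edgeR test, was 365 with DESeq2, 13 with limma-voom, 112 with no filter on low counts, 16 with non-robust dispersion and 4 with the replicate block. The block gave a median over members of -0.49 and called 0. Same-numbered libraries correlated at -0.02, 0.08 and 0.02 in their deviations from group means, with 1 of 3 best matched to its own number. No pairing by number was seen, but a check on 3 pairs cannot exclude one. The log2 ratio of summed member CPM was -0.14 over 10 genes (-0.0087 without flox 1), -0.51 without Pecam1 and -0.58 without Pecam1 and Egfl7 (-0.17 for these 8 without flox 1). Where no value above shows a cause, the cause was not tested. With 33 to 41 counts in KO, Emcn is the member whose level the depth limits most.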
